A study of Rattus norvegicus with 6 samples.

Results

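Glycolysis carries glucose 6-phosphate to pyruvate in a fixed order of steps, and in working muscle the pyruvate can go on to lactate. The transcripts followed here are those of the enzymes of that main line in skeletal muscle, in step order: Gpi, Pfkm, Aldoa, Tpi1, Gapdh, Pgk1, Pgam2, Eno3, Pkm and Ldha. The 10 genes were chosen by name, as the muscle or common form of each step, and every probe set annotated to exactly 1 of them was taken. This gave 14 of the 15923 probe sets on the array, out of 10411 genes with a probe set of their own. Of the 14, 3 were the manufacturer's Gapdh control probe sets, which were left out of the fit across all probe sets, and 1 of the remaining 11 was too dim to test. The 10 tested probe sets belonged to 8 genes. Gapdh was measured only by the controls, and Pkm had no probe set of its own, so that both are described with the probe sets they share with another gene.

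The samples were the left costal hemidiaphragm of male Wistar rats, 1 array for each of 6 rats and no pooling. The diabetic rats (n = 3) had received streptozotocin, a toxin of the insulin-producing beta cells, at 60 mg/kg into the peritoneum in citrate buffer at 8 weeks of age. The normal rats (n = 3) had received the buffer alone at the same age. In both groups the muscle was removed 4 weeks after the injection and after an overnight fast. No rat was treated with insulin, so that the comparison is of untreated streptozotocin diabetes at a single time with the buffer control. The values are MAS 5.0 signals of an Affymetrix rat expression array. The median signal of an array lay between 167.6 and 179.5 in diabetic and between 168.6 and 180.8 in normal diaphragm. A difference is given as the log2 fold change, diabetic minus normal, with its standard error (SE). An adjusted p is that of limma's moderated test after Benjamini-Hochberg adjustment over all 9519 probe sets tested, and a gene passed when it was under 0.05. Signals of different probe sets depend on their probes as well as on their transcripts, so no gene's level was set against another's.

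As background, the first steps of the pathway rearrange and phosphorylate the sugar at the cost of ATP and split it into triose phosphates, and the steps from Gapdh onward recover ATP and reduced NAD. Phosphofructokinase and pyruvate kinase are the largely irreversible steps of the line, whereas most of the others run near equilibrium and are also used in the reverse direction. Fast skeletal muscle fibers are rich in these enzymes, and insulin is known to promote glucose entry into muscle through the transporter encoded by Slc2a4.

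Of the 8 genes tested, 6 were lower in diabetic than in normal diaphragm (Gpi, Pfkm, Pgk1, Pgam2, Eno3 and Ldha), none was higher, and 2 did not pass (Aldoa and Tpi1). Over all 7080 genes tested, 3.55% were lower and 3.46% higher at this adjusted threshold. At an unadjusted p under 0.05, 8 members were lower and 0 higher, beside 11.9% lower and 12.8% higher over all genes tested. By probe set, 7 of 10 were lower and 0 higher, beside 3.48% and 3.30% of all probe sets. The median log2 fold change of the 8 genes was -0.71, beside 0.01 for all genes tested. In 7 of the 8 genes the highest diabetic array was under the lowest normal array, a separation that 14.9% of all genes tested showed in this direction and 15.9% in the opposite one. With 1 array left out the count of 6 lower genes was between 4 (without normal replicate 1, 2 or 3 or diabetic replicate 2) and 6, and the 7 lower probe sets were 4 without normal replicate 3 or diabetic replicate 2. Of the lower genes, those in doubt were Gpi and Pfkm, and Pgk1, Pgam2, Eno3 and Ldha passed in all 6 of those fits. Without diabetic replicate 3 Aldoa also passed (adjusted p = 0.041), whereas Gpi and Pfkm did not. The plot of signals by gene shows the arrays of both groups step by step.

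**Figure D1:**
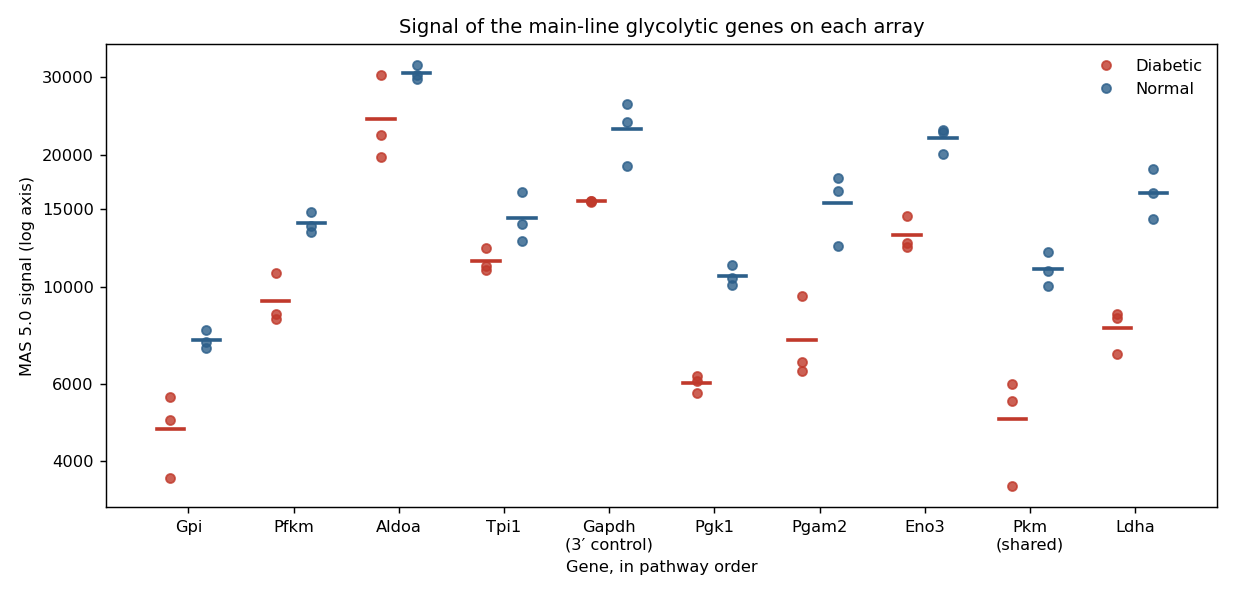
MAS 5.0 signal on a log axis for each main-line glycolytic gene in pathway order, with diabetic arrays left (red) and normal arrays right (blue). Points are arrays (n = 3 per group) and bars are group means. Gapdh is drawn from its 3′ control probe set and Pkm from the probe set it shares with Pkm-ps20. Among the probe sets drawn, that of Aldoa is the one whose groups overlap, because diabetic replicate 3, at 30378, lay within the normal range. The groups also overlap in probe sets not drawn: the middle and 5′ Gapdh controls, the shared Gapdh probe set and the second Pfkm probe set.

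The upper part of the line begins with Gpi, the isomerase that turns glucose 6-phosphate into fructose 6-phosphate. Its signal (probe set 1371392_at) was 5591, 4969 and 3657 in diabetic replicates 1 to 3, against 7489, 7255 and 7957 in normal replicates 1 to 3. All diabetic arrays lay below all normal arrays, with diabetic replicate 3 the lowest. The means were 4739 ± 988 in diabetic and 7567 ± 358 in normal diaphragm (SD, n = 3 each), with a log2 fold change of -0.70 (SE 0.17, 95% confidence interval -1.07 to -0.32, adjusted p = 0.038). This call was not firm: it was lost without any one of normal replicates 1, 2 and 3 and diabetic replicates 2 and 3, with an adjusted p of up to 0.10, and it held without diabetic replicate 1 (-0.83, adjusted p = 0.036).

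Pfkm encodes muscle phosphofructokinase, which commits the sugar to glycolysis. The brighter of its probe sets (1367864_at) read 10738, 8683 and 8461 in diabetic and 13759, 13319.5 and 14789 in normal diaphragm. The groups did not overlap, and diabetic replicate 1 was the highest of its group. The means were 9294 ± 1256 in diabetic and 13956 ± 754 in normal muscle (SD, n = 3 each), and the log2 fold change was -0.59 (SE 0.14, 95% confidence interval -0.91 to -0.28, adjusted p = 0.033). As with Gpi, the call was lost without any one array other than diabetic replicate 1, with an adjusted p of up to 0.11, and without diabetic replicate 1 it held (-0.70, adjusted p = 0.033). The second Pfkm probe set (1386961_at) read 4022, 5252 and 2867 in diabetic and 5815, 3145 and 7811 in normal diaphragm. Here the groups overlapped, normal replicate 2 being below diabetic replicates 1 and 2, and the log2 fold change of -0.41 did not pass (SE 0.31, adjusted p = 0.47). With the mean of both probe sets in place of the brighter one, Pfkm did not pass (-0.50, adjusted p = 0.15).

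Aldoa encodes aldolase A, which splits fructose bisphosphate into triose phosphates. Its probe set (1367617_at) read 22113, 19738 and 30378 in diabetic diaphragm, against 31993, 29792.5 and 30305 in normal diaphragm. Diabetic replicates 1 and 2 lay below the normal arrays, whereas diabetic replicate 3 lay among them. Across the groups, the log2 fold change of -0.37 (SE 0.16, 95% confidence interval -0.74 to -0.01) did not pass at an adjusted p of 0.20, and 1 array decided this: without diabetic replicate 3 it was -0.55 with an adjusted p of 0.041.

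Tpi1 encodes triosephosphate isomerase, which interconverts the products of aldolase so that both can enter the lower part of the line. The signals of 1367603_at were 10930.0, 11117 and 12239 in diabetic and 13926, 12704 and 16456 in normal diaphragm. The groups were separate, but the highest diabetic array (replicate 3) lay close to the lowest normal array (replicate 2). Its log2 fold change of -0.32 (SE 0.14, 95% confidence interval -0.64 to -0.01) had an adjusted p of 0.20 and did not pass with any array left out. Among the members tested this was the fold change nearest to 0.

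Gapdh, glyceraldehyde-3-phosphate dehydrogenase, opens the ATP-yielding part and is also widely used as a reference gene for RNA amounts. The array measures it with control probe sets toward its 3′ end, in its middle and toward its 5′ end. The 3′ control read 15694, 15699 and 15597 in diabetic diaphragm, against 23744, 18826 and 26038 in normal diaphragm. All diabetic arrays were below all normal arrays, and the diabetic arrays differed little among themselves: the means were 15663 ± 57.4 in diabetic and 22869 ± 3685 in normal muscle (SD, n = 3 each). The log2 difference was -0.53, with a 2-sided exact permutation p of 0.1, the smallest that 3 against 3 arrays allow. When the control probe sets were kept in the limma fit the adjusted p was 0.06.

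The other Gapdh probe sets were more variable within the groups. The middle control read 10534, 13846 and 8528 in diabetic and 16456.5, 8958.5 and 23242 in normal diaphragm (log2 difference -0.49, exact permutation p = 0.3). The 5′ control read 5394.5, 10568.5 and 3902 in diabetic and 8756, 4679.5 and 20511 in normal diaphragm (log2 difference -0.64, exact permutation p = 0.6). In both, normal replicate 2 lay below diabetic replicates 1 and 2, and diabetic replicate 3 was the lowest array. The ratio of the 3′ to the 5′ control, a measure of how evenly the transcript is represented along its length, was 2.91, 1.49 and 3.997 on the diabetic arrays and 2.71, 4.02 and 1.27 on the normal arrays, so it was high in diabetic replicate 3 and normal replicate 2 and low in diabetic replicate 2 and normal replicate 3. The means did not separate the groups (2.80 ± 1.26 in diabetic and 2.67 ± 1.38 in normal muscle, SD, n = 3 each, exact permutation p = 0.8). The second Pfkm probe set ranked the 6 arrays in the same order as the middle Gapdh control. Among the 8 member genes tested, diabetic replicate 3 was the lowest array in 5 and normal replicate 2 the lowest normal array in 7. Normal replicate 3 was the highest of its group in 7 of them, but diabetic replicate 2 in 0. What part the differing ratios have in any of these signals was not tested.

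A further probe set (1367557_s_at) is annotated to both Gapdh and Gapdhl10, so its signal cannot be assigned to Gapdh alone. It read 14945.5, 17371 and 15803 in diabetic diaphragm, against 22527, 16916 and 26099 in normal diaphragm. Only normal replicate 2 fell into the diabetic range, and the log2 fold change of -0.43 (SE 0.17) did not pass (adjusted p = 0.16).

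Pgk1, phosphoglycerate kinase, catalyzes the first ATP-yielding step. Its brightest probe set (1388318_at) read 6257, 5714 and 6085 in diabetic diaphragm and 10064, 10489 and 11188 in normal diaphragm. The groups were far apart relative to their spread, with means of 6019 ± 278 in diabetic and 10580.3 ± 567 in normal muscle (SD, n = 3 each). The log2 fold change was -0.81 (SE 0.13, 95% confidence interval -1.10 to -0.53, adjusted p = 0.0059), and it passed with any 1 array left out (adjusted p of up to 0.025). The second probe set, 1387361_s_at, read 3377, 2734 and 2181 in diabetic and 4476, 4867 and 5909 in normal diaphragm. It gave a log2 fold change of -0.89 (SE 0.19, adjusted p = 0.02), again with no overlap, but missed the threshold without normal replicate 3, diabetic replicate 2 or diabetic replicate 3 (adjusted p = 0.057, 0.058 and 0.056). The third, 1368906_at, stayed at or below 24.2 on every array and was not tested.

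Pgam2 encodes the muscle form of phosphoglycerate mutase, which moves the phosphate group to set up the enolase reaction. Signals of 1367951_at were 9503, 6740.3 and 6425 in diabetic and 16549, 12377 and 17730.3 in normal diaphragm. All diabetic arrays were lower, diabetic replicate 1 being the highest of its group and normal replicate 2 the lowest of its own. The means were 7556 ± 1694 in diabetic and 15552 ± 2812 in normal muscle (SD, n = 3 each), so that the diabetic mean was 0.486 of the normal one. The log2 fold change was -1.05 (SE 0.19, 95% confidence interval -1.47 to -0.62, adjusted p = 0.011), with an adjusted p of up to 0.046 when 1 array was left out.

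Eno3 encodes beta-enolase, the enolase of adult muscle, which forms phosphoenolpyruvate. Its probe set (1386907_at) read 14506, 12556 and 12324 in diabetic diaphragm and 22540.5, 20089 and 22749 in normal diaphragm. There was no overlap, and the means were 13129 ± 1199 in diabetic and 21793 ± 1479 in normal muscle (SD, n = 3 each). Eno3 had a log2 fold change of -0.73 (SE 0.13, 95% confidence interval -1.03 to -0.44, adjusted p = 0.011). It passed with any 1 array left out, at an adjusted p of up to 0.047.

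Pkm encodes the muscle pyruvate kinases, which yield ATP and pyruvate. The only probe set annotated to it, 1369931_at, is also annotated to the pseudogene Pkm-ps20, so it lies outside the member counts. It read 5997, 5482 and 3509 in diabetic diaphragm, against 11963, 10056 and 10850.4 in normal diaphragm. The diabetic arrays were all below the normal ones (4996 ± 1313 in diabetic and 10957 ± 958 in normal muscle, SD, n = 3 each). The log2 fold change was -1.17 (SE 0.20, 95% confidence interval -1.61 to -0.73, adjusted p = 0.0087), and it passed with any 1 array left out (adjusted p of up to 0.035).

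Ldha encodes the lactate dehydrogenase subunit that prevails in glycolytic muscle, where the enzyme reduces pyruvate to lactate and returns NAD to the Gapdh step. Its probe set (1367586_at) read 8675, 8475.5 and 7039 in diabetic and 16311, 14234 and 18541 in normal diaphragm. The highest diabetic array was far below the lowest normal array, and the diabetic mean was 0.493 of the normal mean. The log2 fold change was -1.02 (SE 0.15, 95% confidence interval -1.35 to -0.68, adjusted p = 0.0046), the smallest adjusted p among the members, and it stayed at or under 0.021 with any 1 array left out.

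Set out in pathway order, the fold changes of the 4 genes from Pgk1 to Ldha that have a probe set of their own lay between -1.05 and -0.73 on the log2 scale (median -0.92), and all 4 passed. Those of the 4 genes from Gpi to Tpi1 lay between -0.70 and -0.32 (median -0.48), and 2 of 4 passed. Every gene below the Gapdh step thus had a more negative fold change than every gene above it, but Gpi (-0.70) and Eno3 (-0.73) were close and changed places with quantile normalization (Gpi -0.66, Eno3 -0.65), without diabetic replicate 1 (Gpi -0.83, Eno3 -0.81) and without diabetic replicate 2 (Gpi -0.74, Eno3 -0.70). The difference between the parts of the pathway was not tested, and the confidence intervals of Gpi and Pfkm overlap those of all 4 lower genes. The plot of fold changes by step shows these intervals together with those of the second and shared probe sets.

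**Figure D2:**
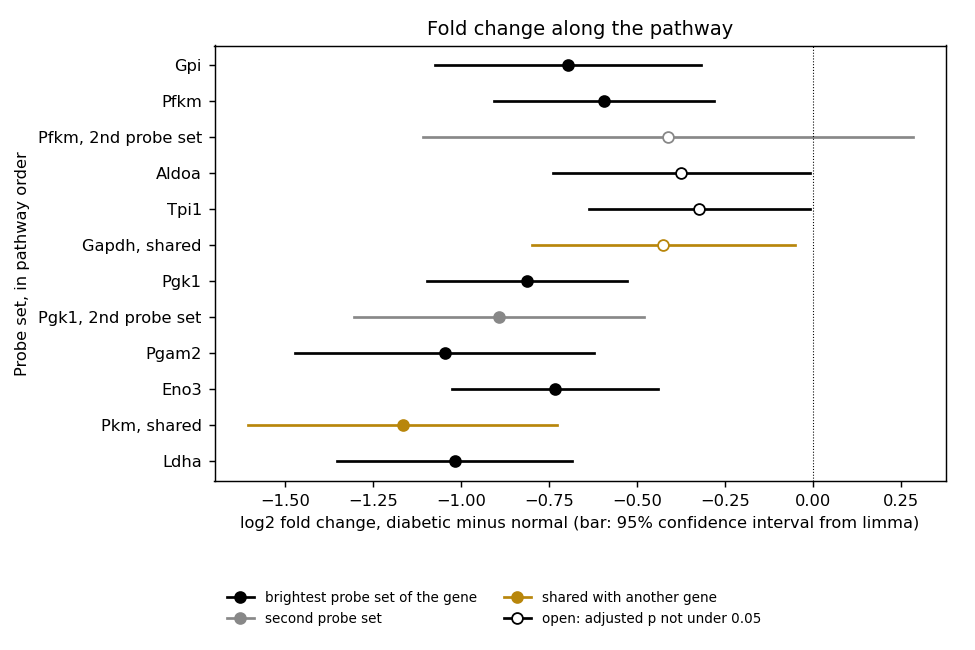
Log2 fold change, diabetic minus normal, of each tested probe set of the main line in pathway order from top to bottom, with 95% confidence intervals from limma (n = 3 arrays per group). Filled points passed at an adjusted p under 0.05 and open points did not. The intervals from Pgk1 to Ldha all end at or below -0.44, whereas those of Aldoa and Tpi1 end at -0.01 and that of the second Pfkm probe set includes 0.

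The arrays of a group kept much the same order along the pathway, though not at every gene. Gpi, Pfkm, Pgam2, Eno3 and Ldha ranked the 6 arrays in the same order, whereas Aldoa, Tpi1 and Pgk1 departed from it. Expressed as log2 signal minus the normal mean, the median over the 8 genes was -0.53 in diabetic replicate 1, -0.74 in diabetic replicate 2 and -0.81 in diabetic replicate 3, against -0.01, -0.09 and 0.08 in normal replicates 1 to 3. Diabetic replicate 1 was the highest of its group in 6 of the 8 genes, and diabetic replicate 3 in the other 2, Aldoa and Tpi1. Diabetic replicate 3 was also the lowest of all 6 arrays in 5 genes, so that it was the lowest array at Gpi and next to the normal level at Aldoa. At Pgk1 the diabetic arrays lay closest together, between -0.89 and -0.76. In the normal group, replicate 3 was the highest in 7 genes and replicate 2 the lowest in 7.

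**Figure D3:**
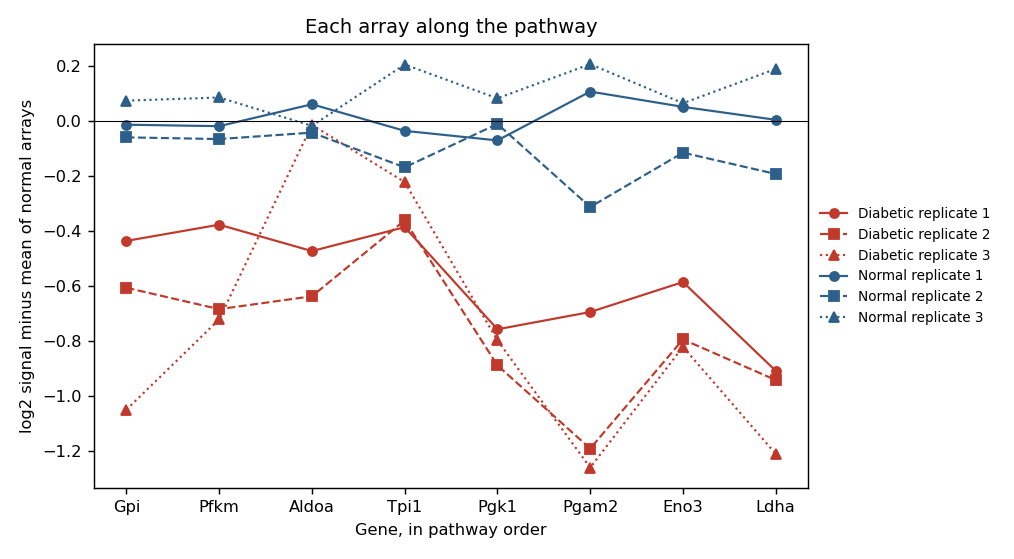
Log2 signal of each array minus the mean of the normal arrays, for the 8 genes with a tested probe set of their own in pathway order. Each line is 1 array, diabetic in red and normal in blue. The diabetic lines lie below the normal ones except at Aldoa, where diabetic replicate 3 (-0.01) lies between normal replicates 1 and 3 (0.06 and -0.02).

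The promoters of the members were read for short elements known from work on glycolytic and muscle genes: ACGTG, the core bound by the hypoxia-inducible factors, CACGTG, an E-box, CTATTTTTA, an A and T rich form bound by MEF2 factors, and TATAAA, the TATA box. The 250 bases before each annotated start were taken from RefSeq (GRCr8), and both strands were searched. Windows were present for 9 of the 10 genes, with 11 windows in all, and Pgk1 had none. ACGTG, which is also part of CACGTG, was found in 4 of the 11 windows (those of Pfkm, Gapdh and Ldha and 1 of the 3 of Aldoa), and in 16.6% of all 33469 windows. CACGTG was found at Ldha alone among the members, and in 5.59% of all windows. CTATTTTTA was found at Pgam2 alone among them, and in 0.463% of all windows, and TATAAA at Gapdh and Pgam2, and in 12.9% of all windows. A match is a run of letters and not a shown binding site, and a window without one says nothing of the factor. Windows are printed for the member with the smallest adjusted p (Ldha) and the member with the fold change nearest to 0 (Tpi1). That of Pgam2, with the most negative fold change among genes with their own probe set, is printed too. All read 5′ to 3′ in the direction of transcription, with the searched elements in capitals and the last base next to the annotated start. The Ldha window lies on the plus strand at chr1:106507842-106508091, the Pgam2 window on the minus strand at chr14:84897875-84898124 and the Tpi1 window on the minus strand at chr4:159305089-159305338.
Ldha: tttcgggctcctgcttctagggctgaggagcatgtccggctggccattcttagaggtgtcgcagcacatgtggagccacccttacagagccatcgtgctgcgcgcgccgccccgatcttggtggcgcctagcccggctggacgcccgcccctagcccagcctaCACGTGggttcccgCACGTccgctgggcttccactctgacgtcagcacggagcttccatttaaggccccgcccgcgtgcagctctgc
Pgam2: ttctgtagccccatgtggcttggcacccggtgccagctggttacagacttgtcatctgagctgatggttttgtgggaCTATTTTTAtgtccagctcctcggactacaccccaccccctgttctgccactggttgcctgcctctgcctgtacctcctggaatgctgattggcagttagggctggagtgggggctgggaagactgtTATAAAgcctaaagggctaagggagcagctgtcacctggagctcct
Tpi1: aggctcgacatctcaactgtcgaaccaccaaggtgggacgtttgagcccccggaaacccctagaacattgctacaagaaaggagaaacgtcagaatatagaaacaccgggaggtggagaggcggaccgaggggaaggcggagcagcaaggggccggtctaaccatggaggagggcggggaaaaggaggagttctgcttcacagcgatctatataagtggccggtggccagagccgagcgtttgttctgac

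In these windows Ldha holds CACGTG and, a few bases on, a second ACGTG core read on the opposite strand (CACGT as printed). Pgam2 holds the MEF2-type element and, near the start, the TATA box, and Tpi1 holds none of the letters searched. Lower and not passing genes both occur among those with an ACGTG core (Ldha and Pfkm passed, Aldoa did not), and with so few genes no relation to the fold changes was tested.

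Several steps have a second enzyme gene that prevails in other tissues or fibers. Of 11 genes listed as isozymes that have a probe set of their own, 7 were above the filter on low signals. The list includes Ldhd, which acts on the D form of lactate and is not a second form of the Ldha step. None of the 7 passed limma's test in either direction, and their median log2 fold change was -0.34. At an unadjusted p under 0.05, 2 were lower (Aldoc and Ldhd) and 1 higher (Pfkp), beside 11.9% and 12.8% of all genes. Pgam1, the mutase of brain and most other tissues, averaged 1283 ± 259 in diabetic and 1282 ± 307 in normal diaphragm (SD, n = 3 each). Its log2 fold change of 0.01 had a 95% confidence interval of -0.45 to 0.47, and its sign changed with the processing. Ldhb, the subunit that prevails in heart and oxidative fibers, averaged 14360 ± 1036 in diabetic and 14811 ± 1828 in normal diaphragm (SD, n = 3 each), with a log2 fold change of -0.04 (95% confidence interval -0.35 to 0.27) whose sign also changed. Eno1, the ubiquitous enolase, averaged 2377 ± 500 in diabetic and 3026 ± 795 in normal diaphragm (SD, n = 3 each; log2 fold change -0.34, adjusted p = 0.41).

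The other isozymes tested were dim. Pfkp, the platelet-type phosphofructokinase, averaged 273 ± 33.2 in diabetic and 190 ± 23.5 in normal diaphragm (SD, n = 3 each). All 3 diabetic arrays were above all normal arrays, but the log2 fold change of 0.52 did not pass (adjusted p = 0.13). Aldoc, the aldolase of brain, averaged 246 ± 20.3 in diabetic and 351 ± 61.8 in normal diaphragm (SD, n = 3 each; log2 fold change -0.50, adjusted p = 0.14). Ldhd, which acts on the D form of lactate, gave -0.55 (adjusted p = 0.089), and its second probe set -0.87 (adjusted p = 0.10). For Aldoc and both Ldhd probe sets, all diabetic arrays were below all normal arrays. Over all genes tested, 14.9% were separated in this direction and 15.9% in the direction of Pfkp. The sperm-type Gapdhs gave -0.36 (adjusted p = 0.50). Pfkl, Eno2, Pklr and Ldhc were below the filter.

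The muscle form was set against its counterpart within each array for the 3 pairs that could be formed, which removes any factor common to the whole array. The log2 ratio of Ldha to Ldhb, relative to the normal mean, was -0.87, -0.79 and -1.27 on the diabetic arrays and -0.19, -0.05 and 0.24 on the normal arrays. The groups were separate, by -0.98 on average (SE 0.19). The ratio of Pgam2 to Pgam1 was -1.01, -1.14 and -1.02 on the diabetic arrays and 0.33, -0.69 and 0.36 on the normal arrays. These groups were also separate, by -1.05 on average (SE 0.35), although normal replicate 2 lay nearer to the diabetic arrays than to the other normal arrays. The ratio of Eno3 to Eno1 was -0.41, -0.67 and -0.11 on the diabetic arrays and -0.05, 0.33 and -0.28 on the normal arrays, an overlap, with a difference of -0.40 (SE 0.24). The 2-sided exact permutation p was 0.1 for the Ldha and Pgam2 pairs, the smallest that 3 against 3 arrays allow, and 0.2 for the Eno3 pair (0.15, 0.15 and 0.2 after Benjamini-Hochberg adjustment over the 3 pairs), so that no pair could reach 0.05.

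**Figure D4:**
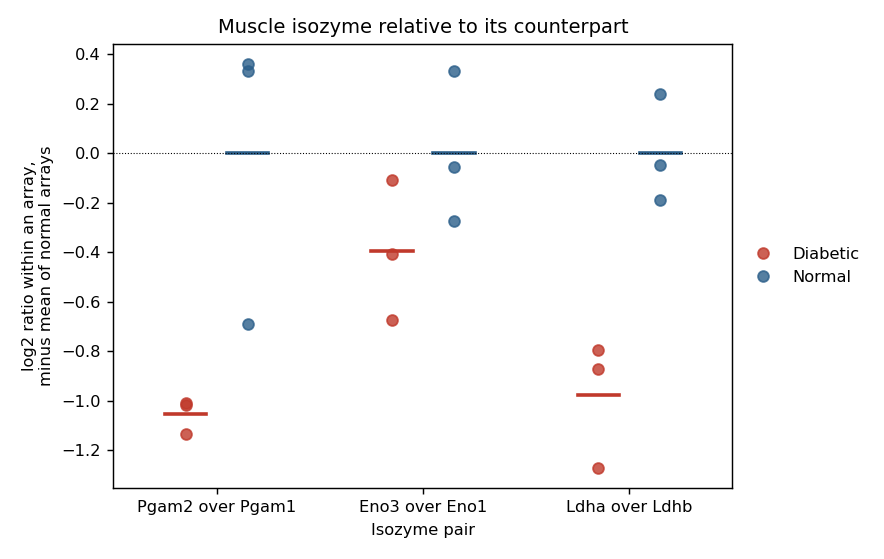
Log2 ratio of the muscle isozyme to its counterpart within each array, minus the mean of the normal arrays, for 3 pairs. Points are arrays (diabetic left in red, normal right in blue, n = 3 each) and bars are group means. The diabetic arrays lie below all normal arrays for Pgam2 over Pgam1 and for Ldha over Ldhb, and overlap them for Eno3 over Eno1.

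Around the main line stand the transporters, the glycogen and regulatory enzymes, the glycerol phosphate shuttle and the entry of pyruvate into mitochondria. Of 26 such genes, 21 were tested. There were 6 lower in diabetic diaphragm (Slc16a3, Gpd1, Gpd2, Slc2a4, Bpgm and Pgm1) and 0 higher, beside 3.55% and 3.46% of all genes. The other 15 did not pass. At an unadjusted p under 0.05 the counts were 9 lower and 1 higher, beside 11.9% and 12.8% of all genes. The median log2 fold change was -0.40. The count of 6 lower genes was 3 without normal replicate 1, normal replicate 2 or diabetic replicate 2. Bpgm (log2 fold change -0.77, adjusted p = 0.022) passed in only 2 of the 6 fits with 1 array left out (adjusted p of up to 0.085). Pgm1 (-0.77, adjusted p = 0.022) passed in 1 of the 6 (up to 0.073), but its second probe set (-1.02, adjusted p = 0.01) passed in all 6. Slc16a3, the lactate transporter of glycolytic fibers, read 371, 236 and 154 in diabetic and 629.9, 769 and 1445 in normal diaphragm (log2 fold change -1.90, SE 0.35, adjusted p = 0.012). For the related transporter Slc16a1 it was 0.20 (95% confidence interval -0.11 to 0.51, adjusted p = 0.43). Gpd1, the cytosolic enzyme that draws triose phosphate off the line toward glycerol phosphate, read 1519.9, 979 and 1107 in diabetic and 4063, 3410.1 and 5833 in normal diaphragm (log2 fold change -1.87, SE 0.23, adjusted p = 0.0019). Both were lower on every diabetic array.

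Gpd2, the mitochondrial partner of Gpd1, read 572, 473 and 306 in diabetic and 982, 1120.2 and 1060.0 in normal diaphragm (log2 fold change -1.27, SE 0.22, adjusted p = 0.0099). Its second probe set, at -0.35 (adjusted p = 0.43), did not pass, and the mean over both gave -0.81 and an adjusted p of 0.056. Slc2a4, the insulin-responsive glucose transporter, read 4571, 3253 and 4083 in diabetic and 8540.5, 7072 and 5518 in normal diaphragm (log2 fold change -0.82, SE 0.19, adjusted p = 0.031). Its second probe set, at 0.01 (adjusted p = 0.99), did not pass, and the call on the first was lost without normal replicate 1 (adjusted p = 0.11), normal replicate 2 (0.078), diabetic replicate 2 (0.10) or diabetic replicate 3 (0.066). It was lost as well with median scaling (0.057), no filter (0.064), no trend (0.064) and the mean over both probe sets, which gave -0.41 (adjusted p = 0.19). The hexokinases, which feed the line, did not pass (Hk1 0.14, adjusted p = 0.77, and Hk2 -0.24, adjusted p = 0.61, on the log2 scale). Pdk4, the kinase that restrains pyruvate dehydrogenase, averaged 9723 ± 579 in diabetic and 5035 ± 2518 in normal diaphragm (SD, n = 3 each; log2 fold change 1.07, SE 0.29). It was above the normal range on every diabetic array but just missed the threshold at an adjusted p of 0.054.

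**Figure D5:**
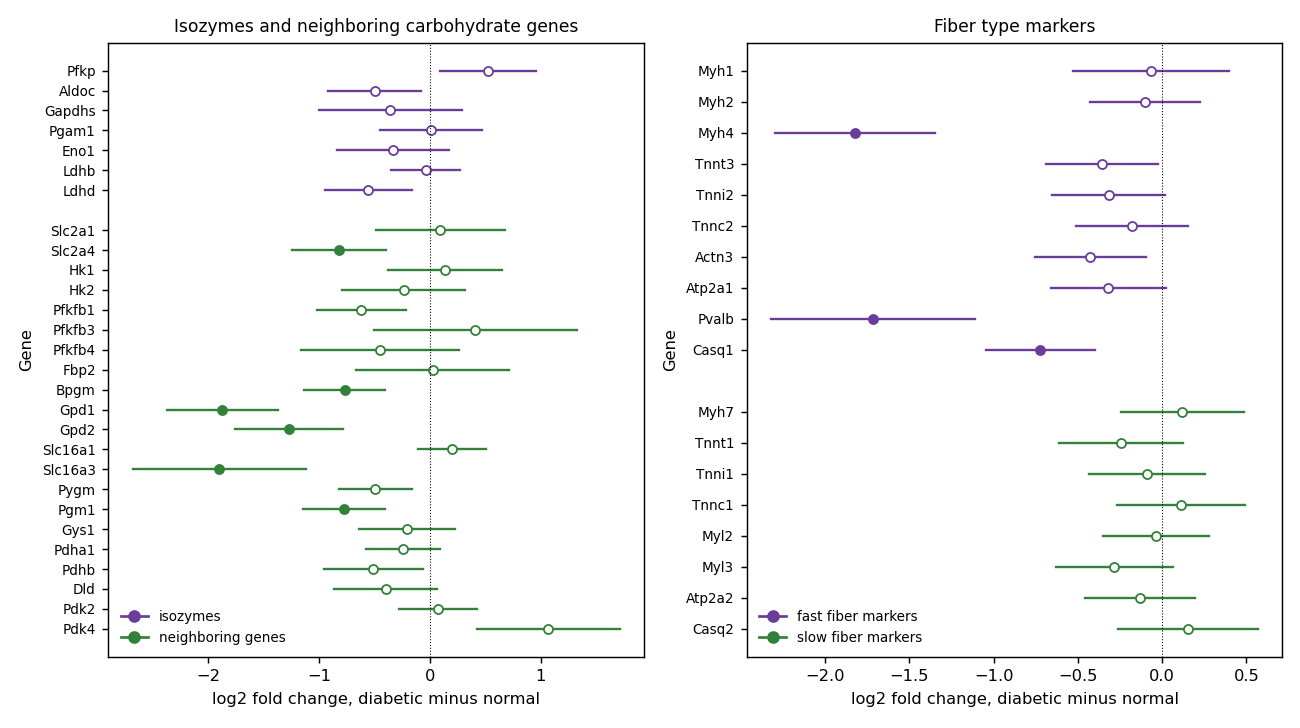
Log2 fold change, diabetic minus normal, with 95% confidence intervals from limma (n = 3 arrays per group). Left, the genes listed as isozymes and the neighboring carbohydrate genes, and right, markers of fast and slow fibers, with filled points for an adjusted p under 0.05. Filled points on the left are the 6 lower neighboring genes, and on the right Myh4, Pvalb and Casq1.

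The diaphragm holds several fiber types, and bulk RNA cannot tell fewer fibers of a type from less RNA per fiber. Of 11 fast fiber markers 10 were tested, of which 3 were lower (Myh4, Pvalb and Casq1), 0 higher and 7 short of the threshold (at an unadjusted p under 0.05, 5 lower and 0 higher). Over all genes tested, 3.55% were lower and 3.46% higher at the adjusted threshold, and 11.9% and 12.8% at the unadjusted one. Myh4, the myosin heavy chain of the fastest fibers, averaged 2234 ± 722 in diabetic and 7691 ± 931 in normal diaphragm (SD, n = 3 each; log2 fold change -1.82, SE 0.21, adjusted p = 0.0017). Pvalb, the calcium buffer of fast fibers, averaged 3967 ± 1560 in diabetic and 12419 ± 2144 in normal diaphragm (SD, n = 3 each; log2 fold change -1.72, SE 0.27, adjusted p = 0.0061). Casq1, which binds calcium in the sarcoplasmic reticulum, was lower by a log2 fold change of -0.72 (adjusted p = 0.017), a call lost without normal replicate 2, normal replicate 3 or diabetic replicate 2 (adjusted p = 0.052, 0.053 and 0.056). The myosins of the other fast fibers, Myh1 and Myh2, had log2 fold changes of -0.07 and -0.10 and did not pass. The other Myh1 probe sets differed in sign, from -0.485 (adjusted p = 0.30) to 0.60 (adjusted p = 0.34), and did not pass either. The median over the list was -0.34, and the summed signal of the 10 markers was 125675 to 161811 on the diabetic and 175984 to 200404 on the normal arrays. Of the 8 slow fiber markers, all tested, none passed in either direction (0 lower and 0 higher at an unadjusted p under 0.05). Their median was -0.06, and their summed signal was 135490 to 182087 on the diabetic and 141463 to 169436 on the normal arrays. The part of fiber type in the lower glycolytic signals was not tested.

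The labeled tissue was checked on its general markers: Ckm, Acta1, Des, Mb and Myl1 had signals of at least 8060.6 on every array. For Ckm, the muscle creatine kinase, the log2 fold change was -0.26 (adjusted p = 0.50) and for Acta1, skeletal actin, -0.06 (adjusted p = 0.88). Mb, myoglobin, was lower (-0.56, adjusted p = 0.039), a call that held only without diabetic replicate 3 when 1 array was left out and otherwise had an adjusted p of up to 0.13. Of the markers of other cells, 3 of 5 fibroblast markers were lower (Lum, Col1a1 and Col1a2), with a summed signal of 17580 to 19010 on the diabetic and 28818 to 30976 on the normal arrays. Over all genes tested, 3.55% were lower and 3.46% higher at the adjusted threshold. Of 3 endothelial markers tested 1, Kdr, was higher (log2 fold change 0.66, adjusted p = 0.046, lost without any 1 of the 6 arrays at up to 0.15), with a sum of 2552 to 2844 on the diabetic and 1884 to 2159 on the normal arrays. Of the adipocyte (2 tested), macrophage (4 tested) and red blood cell (2 tested) markers none passed, and none at an unadjusted p under 0.05. Their sums were 6351 to 8142, 966 to 1402 and 15560 to 26703 on the diabetic arrays and 5787 to 7599, 1105 to 1251 and 14394 to 17158 on the normal arrays. The red blood cell sum was highest on diabetic replicate 3. All 4 liver markers were below the filter. The part of these cells in the glycolytic signals was not tested.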

How the data were processed

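RNA of 6 diaphragms, 3 diabetic and 3 normal, was hybridized to an Affymetrix rat expression array, 1 array per rat. The authors deposited intensity values, which are MAS 5.0 signals of 15923 probe sets already scaled between arrays (136 values under 1 were set to 1 here). The scaling target and the present calls of single probe sets were not given in the sources used here. Scanner background cannot be recovered from such signals. The precision of the comparison is limited by the number of arrays, 3 diabetic and 3 normal.

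The deposited intensities were converted to log2. The 57 control probe sets and the dimmest probe sets (mean signal not above the 40th percentile, 105.8) were left out, and 9519 were tested with limma 3.58.1 in R 4.3.3 (lmFit, eBayes with trend, 4 residual degrees of freedom, Benjamini-Hochberg adjustment). The study's own Bayesian analysis of variance was not repeated. Genes were named from the platform annotation, updated to current symbols: 12783 probe sets had 1 gene, 312 several and 2771 none. Where a gene had several probe sets, the brightest on average stood for it. On simulated data of the same size, 54 of 100 genes changed 2-fold and 94 of 100 changed 4-fold were called.

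All 10 members were described whether or not they passed, with the isozymes that have a probe set of their own and the up to 4 neighboring genes with the largest fold changes among those that passed. The neighboring genes Bpgm, Pgm1, Slc16a1, Hk1, Hk2 and Pdk4 were described in addition, outside this rule. Myh4, Pvalb and other markers were named from the marker lists. The members and the gene lists were chosen with earlier results of these data known. Single values outside the fit, such as isozyme ratios, had a 2-sided exact permutation test. Other settings tried were an offset of 64 before log2, quantile normalization or median scaling of the arrays, no filter or one at the 60th percentile, a variance prior without trend, array weights, a block for the replicate number, averaging a gene's probe sets and leaving out each array in turn, and, added after seeing the data, the control probe sets kept in the fit and the shared probe sets. The labels do not say whether replicates differ in more than the animal.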

Additional observations from a re-analysis of the deposited data

How the results depend on the processing

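None of the 8 member genes tested, nor Slc16a3, Gpd1, Gpd2 or Slc2a4, changed direction under any alternative, and no member was called higher under any. The median log2 fold change of the 8 member genes lay between -0.82 and -0.62 (main value -0.71). The count of 6 lower member genes was 3 with no filter, which tests more probe sets, and between 4 and 6 with 1 array left out, and that of 7 lower member probe sets was 4 with no filter, 4 with the replicate block and between 4 and 7 with 1 array left out. Gpi did not pass with no filter, no trend or the block (adjusted p of up to 0.077), and Pfkm in addition with median scaling or the mean over its probe sets (up to 0.15), while Eno3 reached 0.051 with no filter. Of the genes listed as isozymes 1, Ldhd, which acts on the D form of lactate, was lower with array weights (log2 fold change -0.65, adjusted p = 0.044, against up to 0.25 otherwise). Of the neighboring genes between 3 and 6 were lower with 1 array left out, and 1, Pdk4, was higher with quantile normalization, the offset of 64, the filter at the 60th percentile, the mean over probe sets or normal replicate 1 left out (between 0 and 1 with 1 array left out). Pgam1, at 0.01, was -0.013 with quantile normalization, and between -0.15 and 0.20 with 1 array left out, below 0 without normal replicate 1 (-0.10), normal replicate 3 (-0.07) or diabetic replicate 1 (-0.15). Ldhb, at -0.04, was 0.0001 with quantile normalization and between -0.11 and 0.06 with 1 array left out, above 0 without normal replicate 1 (0.057) or diabetic replicate 2 (0.013). The cause of these changes was not tested. The differences of the isozyme ratios kept their sign with 1 array left out (Ldha to Ldhb -1.07 to -0.83, Pgam2 to Pgam1 -1.40 to -0.88 and Eno3 to Eno1 -0.54 to -0.23).

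The replicate numbers were not found to pair the samples: the deviations of same-numbered arrays correlated at 0.098, -0.195 and -0.068 over probe sets. With the replicate block 4 member genes were lower in place of 6, and Slc16a3 (adjusted p = 0.054), the second Pgk1 probe set (0.065) and Mb (0.056) also missed the threshold. The precision is that of 3 rats a group, and dim isozymes near the filter are the least well measured.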
